A study of Mus musculus with 6 samples.

Results

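The endochondral and osteogenic regulators described here are 10 genes: the transcription factor genes Runx1, Runx2 and Runx3, their shared partner Cbfb, Sp7 and Mef2c, the hormone Pthlh and its receptor Pth1r, and the effector genes Alpl and Col10a1. They were found by the gene symbol in the deposited probe table, where Pth1r is listed under the older symbol Pthr1 and Alpl under Akp2. All 10 genes were present, with 17 probes among 25697 on the array. Of these 17 probes 13 passed the filter on dim probes, which left 7 genes for testing among 10831 tested genes. Runx2, Runx3 and Col10a1, with 4 probes, were above background on no array and were not tested.

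RNA came from whole tracheas of mouse embryos of the C57BL/6 background at stage E18.5, measured on an Illumina bead array. The 3 mutant pools carry the genotype Sox9-/- in the labels and lacked Sox9 in the mesenchyme, and with it the cartilage rings. The 3 control pools carry the genotype Sox9+/+, and pools are called mutant and control throughout as their labels have it. Each pool held 3 tracheas, 9 per group from 7 pregnant females, mixed at random before extraction, and the driver of the deletion is not given in the sources used here. In bulk tissue of this kind, fewer cells of a type and less RNA per cell cannot be told apart.

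Cartilage that is to be replaced by bone passes through an ordered program. Proliferating chondrocytes are held back from enlarging by parathyroid hormone-related protein, the product of Pthlh, which acts through the receptor Pth1r. MEF2C and the RUNX factors bound to CBFB drive the enlarged, hypertrophic state marked by collagen X, and RUNX2 followed by SP7 commits neighbouring cells to the osteoblast fate, in which the alkaline phosphatase encoded by Alpl allows mineral to form. Tracheal rings in mice are hyaline cartilage that stays unmineralised through fetal life. RUNX1 and RUNX3 also act outside the skeleton, in blood cells and epithelia.

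The labelled tissue and genotype were checked against marker genes. The club cell gene Scgb1a1 averaged 14.72 on the normalized log2 scale in mutant pools and 14.51 in control pools, and the basal cell keratin gene Krt15 averaged 13.56 in mutant pools and 13.53 in control pools, so airway epithelium was present in both groups. Of 10 tested chondrocyte markers 6 fell in mutant pools and none rose. A marker detected in control pools alone could enter this test, and for such a marker a fall was the likely outcome. With detection required on all 6 arrays 3 were tested and 1, Col9a2, fell. The Sox9 probe was detected in 3 of 3 mutant pools and 0 of 3 control pools, so it entered the test through the mutant arrays alone. Its log2 change of 0.86 (SE 0.12, limma adjusted p = 0.0163) is measured against control signals below background. The higher reading in mutant pools goes against the label. But the probe did not read the intact gene in control pools and its place relative to the deleted part is not given, so it checks nothing. Median raw readings were 205 to 211 for mutant pools and 183 to 198 for control pools. By their labels the arrays were positions of 1 slide with 1 pool each, so position cannot be told apart from group. Member probes were read from 19 to 55 beads per array. The number of arrays limits the precision, and p-values measure the spread between pools of 3 embryos.

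Both members that passed the test fell in the pools labelled mutant: Sp7, by 1.06 on the log2 scale, and Pth1r, by 0.79. These were 2 of 7 tested members, where 5.52% of all 10831 tested genes passed in either direction and 3.36% passed as lower in mutant pools (limma, adjusted p below 0.05). No member rose by limma's test (1, Runx1, was higher at an unadjusted p below 0.05), where 2.16% of all tested genes passed as higher. Without 1 pool the count was 1 at most: Pth1r without mutant pool 1 or control pool 1, Sp7 without mutant pool 3, and 0 without mutant pool 2, control pool 2 or control pool 3. In 4 of the 7 (Runx1, Cbfb, Sp7 and Pth1r) the values of the groups did not overlap, where 31.4% of all tested genes had groups apart. The median change was -0.31 over the 7 tested members and 0.01 over all tested genes, with 6 of the 7 changes below 0. With 7 genes, 1 member more or less moves each of these shares widely.

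**Figure D1:**
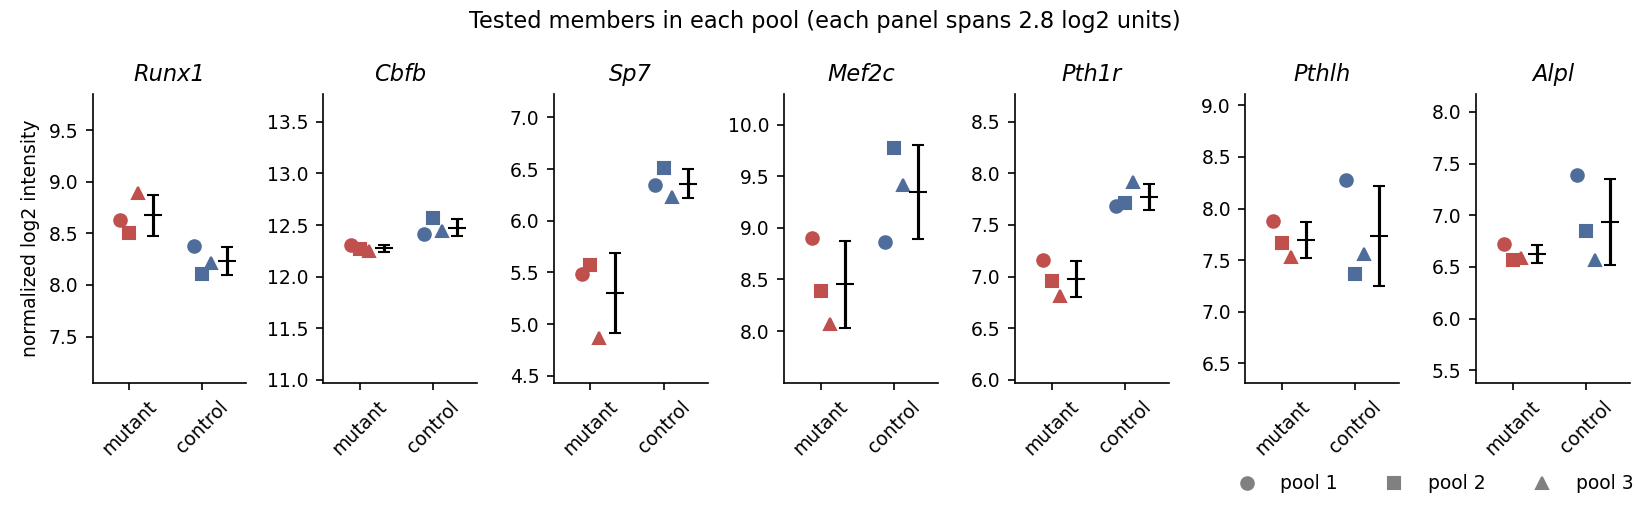
Normalized log2 intensity (y axis) of the 7 tested members in the 3 mutant pools (red) and the 3 control pools (blue), 1 panel per gene, each spanning the same number of log2 units. Each symbol is 1 pool and the black bar is the group mean with its SD (n = 3). The groups lie apart for Runx1, Cbfb, Sp7 and Pth1r, while control pool 1 lies within the mutant values for Mef2c and above all other pools for Pthlh and Alpl.

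Runx1 encodes a DNA-binding RUNX subunit known for its place in blood stem cells and also active in epithelia and early cartilage. Its single probe read 594, 534 and 666 raw intensity units in mutant pools 1, 2 and 3, against 428, 374 and 434 in control pools 1, 2 and 3. All mutant values lay above all control values, and the groups stayed apart on the normalized scale. The normalized log2 means were 8.67 ± 0.20 in mutant pools and 8.23 ± 0.14 in control pools (SD, n = 3 each). The change of 0.44 (SE 0.13, 95% interval 0.13 to 0.75) did not pass the limma test over all genes (adjusted p = 0.0994), and it was called in none of 20 alternative fits. Runx1 was thus the 1 tested member with a change above 0.

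Markers of the cells in which Runx1 is also known to be active stood as follows. The summed normalized intensity of 6 basal epithelial markers was 15407 to 16808 in mutant pools and 13794 to 16162 in control pools, and that of 6 airway epithelial markers was 46195 to 51887 in mutant pools and 39524 to 43967 in control pools. All 6 of the airway epithelial markers had changes above 0, but none passed limma's test (4 had an unadjusted p below 0.05). Foxj1 passed as higher without mutant pool 1, and 3 (Foxj1, Krt18 and Nkx2-1) passed without background correction, with an intensity trend or with array weights. Foxj1 passed also with a larger offset, with array median scaling and with detection required on all 6 arrays. None of the basal markers passed limma's test (2 had an unadjusted p below 0.05, Trp63 above 0 and Krt5 below). Trp63 passed without control pool 1, in the 3 settings in which Krt18 passed, with a larger offset and with array median scaling. The 8 macrophage and leukocyte markers summed to 3806 to 5421 in mutant pools and 3141 to 3859 in control pools, with Aif1 the 1 that rose among 6 tested (log2 change 0.58, SE 0.12, adjusted p = 0.0455) and 0 higher in each fit without 1 pool. Of 9 lymphocyte markers Cd3d, Cd3e, Cd4, Cd8a, Cd79a and Ms4a1 were above background on no array, and 2 were tested. Of these Cd3g, detected in 3 of 3 mutant pools and 1 of 3 control pools, had a change of 0.74 (SE 0.19, adjusted p = 0.0730) with the groups apart, and it passed without control pool 2 and with array weights. The part of these cells in the Runx1 values was not tested.

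Runx2, the main RUNX factor of hypertrophic cartilage and bone, was read by 2 probes, neither above background on any array. Its probe ILMN_1220130 read 178, 151 and 166 raw units in mutant pools 1, 2 and 3, against 149, 145 and 158 in control pools 1, 2 and 3, with detection p of 0.125 to 0.870 in mutant pools and 0.336 to 0.525 in control pools. Its other probe, ILMN_2599072, read 150 to 163 raw units in mutant pools and 135 to 159 in control pools. The single Runx3 probe read 152 to 166 raw units in mutant pools and 138 to 145 in control pools, with detection p of at least 0.440 on each array. These values do not show that the RNAs were absent, since the probe for Sox9 was not above background in control tracheas either. A difference between groups in Runx2 or Runx3 was not detectable here.

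The start regions of the RUNX genes are shown because RUNX proteins are known to bind the core TGTGGT, which was searched on both strands (its reverse is ACCACA) in the 250 bases before each annotated start. The sequences are from RefSeq on build GRCm38.p6, written 5′ to 3′ on the strand of the gene. Windows were held for 9 of the 10 members, 16 windows in all, and Sp7 had none. The RUNX core was found in 2 of the 16 windows, those of Runx2 and the upstream start of Runx3, and in 14% of 32851 windows of the same length over all genes. The Runx2 match begins 80 bases before the start, and the 2 Runx3 matches begin 134 and 126 bases before it. Capitals mark the core.
Runx2, chr17:44814628-44814877, minus strand: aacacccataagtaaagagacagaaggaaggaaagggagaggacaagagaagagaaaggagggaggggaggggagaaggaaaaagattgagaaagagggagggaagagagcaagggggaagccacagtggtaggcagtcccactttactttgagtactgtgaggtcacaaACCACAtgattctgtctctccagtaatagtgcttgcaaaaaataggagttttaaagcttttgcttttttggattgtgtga
Runx3, upstream start, chr4:135120395-135120644, plus strand: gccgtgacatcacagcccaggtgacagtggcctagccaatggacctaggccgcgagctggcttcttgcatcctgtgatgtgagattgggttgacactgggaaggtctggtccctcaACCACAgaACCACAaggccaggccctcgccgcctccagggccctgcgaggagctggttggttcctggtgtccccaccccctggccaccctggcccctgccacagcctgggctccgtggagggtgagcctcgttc
Neither gene was read above background, so the array bears on neither window. The 2 windows of Runx1, whose RNA was detected on all 6 arrays, held no match, which says only that these letters were not in them.

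CBFB, the non-DNA-binding partner, steadies every RUNX protein on DNA. The probe of Cbfb with the highest mean, ILMN_2757743, had normalized log2 values of 12.31, 12.26 and 12.25 in mutant pools 1, 2 and 3, against 12.41, 12.57 and 12.44 in control pools 1, 2 and 3. The mutant values lay below the control values by a narrow gap, with a change of -0.20 (SE 0.09, 95% interval -0.41 to 0.0049, adjusted p = 0.208). A further bright probe, ILMN_2837855, gave -0.33 (SE 0.10, adjusted p = 0.108 in the fit of single probes), again with the groups apart. The remaining, dim probe gave 0.07 (SE 0.19, adjusted p = 0.849) with overlapping groups. On the raw scale the first probe read 5370 to 5611 in mutant pools and 5096 to 5683 in control pools, so that the groups overlapped before normalization. Cbfb did not pass in any of 20 alternative fits.

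Sp7, also known as osterix, acts after Runx2 and is required for osteoblasts to form. Its single probe read 197, 195 and 176 raw units in mutant pools 1, 2 and 3, against 205, 215 and 216 in control pools 1, 2 and 3. The mutant values were all below the control values although the mutant arrays had the higher median intensity. On the log2 scale the values were 5.48, 5.57 and 4.86 in mutant pools, against 6.35, 6.51 and 6.23 in control pools. Sp7 fell by 1.06 (SE 0.20, 95% interval -1.52 to -0.59, limma adjusted p = 0.0344), a 2.08-fold difference of signals near background. It was detected in 2 of 3 mutant pools and 3 of 3 control pools, with a detection p of 0.192 in mutant pool 3. Without background correction the change was -0.31 (adjusted p = 0.0364), and with a larger offset it was -0.65. The call held without mutant pool 3 (-0.83, adjusted p = 0.0436) and was lost without any other single pool, with adjusted p of 0.0555 without mutant pool 1, 0.0804 without mutant pool 2, 0.0644 without control pool 1, 0.105 without control pool 2 and 0.0800 without control pool 3.

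**Figure D2:**
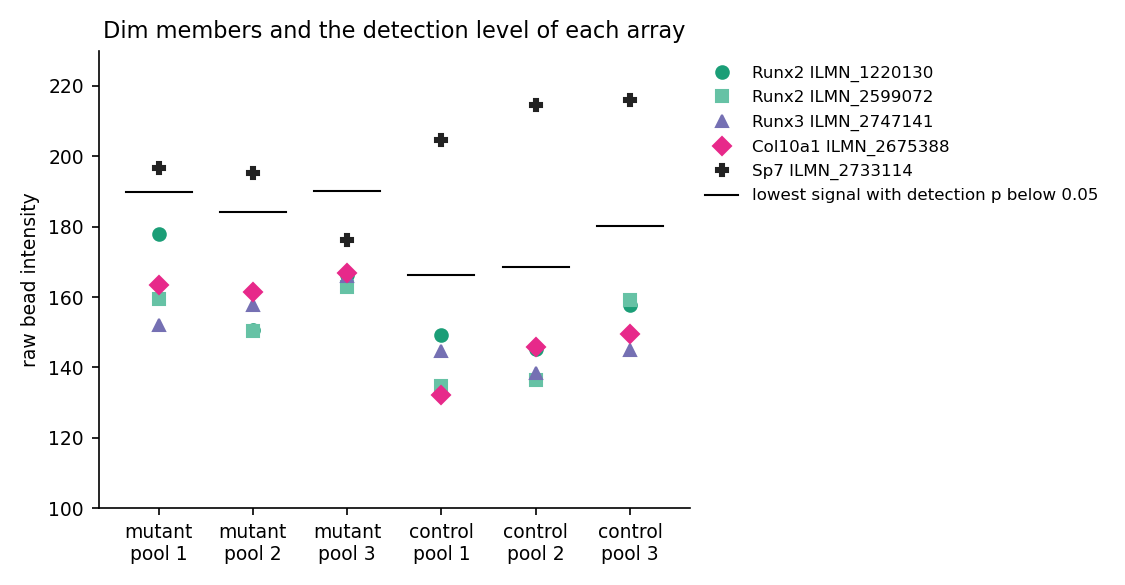
Raw bead intensity (y axis) of the probes for Runx2, Runx3, Col10a1 and Sp7 on each array (x axis, mutant pools left of control pools). Horizontal bars mark the lowest signal with a detection p below 0.05 on that array. Sp7 lies above the bar on all arrays but that of mutant pool 3, and the other 4 probes lie below it on each array.

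Mef2c encodes a MADS-box factor that drives chondrocyte enlargement and is also active in muscle, endothelium and the heart. The probe with the highest mean, ILMN_2732465, read 688, 505 and 441 raw units in mutant pools 1, 2 and 3, against 546, 904 and 812 in control pools 1, 2 and 3. Control pools 2 and 3 lay above all mutant pools, while control pool 1 lay within the mutant range. The log2 means were 8.45 ± 0.42 in mutant pools and 9.35 ± 0.46 in control pools (SD, n = 3 each), a change of -0.90 (SE 0.28, 95% interval -1.57 to -0.22) that did not pass (adjusted p = 0.114). Its other probes gave -0.52 (SE 0.30) and -0.40 (SE 0.25), and both had control pool 1 below control pools 2 and 3. Without control pool 1 the change was -1.14 (adjusted p = 0.0672), and with array weights, which let noisier arrays count less, it was -0.95 and passed (adjusted p = 0.0390).

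Levels of muscle and endothelial markers are given beside Mef2c. The 6 smooth muscle markers summed to 24461, 21410 and 16393 normalized intensity units in mutant pools 1, 2 and 3, against 23079, 30074 and 31757 in control pools 1, 2 and 3. Control pool 1 was the lowest control pool and mutant pool 1 the highest mutant pool, as in the Mef2c probe with the highest mean. Of 5 tested smooth muscle markers 2 fell, Actg2 (-0.86, SE 0.16, adjusted p = 0.0336) and Tagln (-0.65, SE 0.13, adjusted p = 0.0419), and all 5 changes were below 0. Without 1 pool, 1 was called lower without mutant pool 1, 2 without control pool 1, and 0 without any other single pool. Skeletal muscle markers summed to 9678, 6907 and 2514 in mutant pools and 582, 780 and 5513 in control pools, again with control pool 1 the lowest control pool and mutant pool 1 the highest mutant pool. Between groups the skeletal muscle markers went the other way from Mef2c. Of the 5 tested, 4 changes were above 0 and 1 below (median 1.79), and none passed limma's test. Endothelial markers summed to 4413, 3861 and 3672 in mutant pools 1, 2 and 3, against 4463, 4654 and 3789 in control pools 1, 2 and 3. Their lowest control pool was thus control pool 3, unlike in Mef2c, and their highest mutant pool was mutant pool 1, as in Mef2c. The part of these cells in the Mef2c values was not tested.

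**Figure D3:**
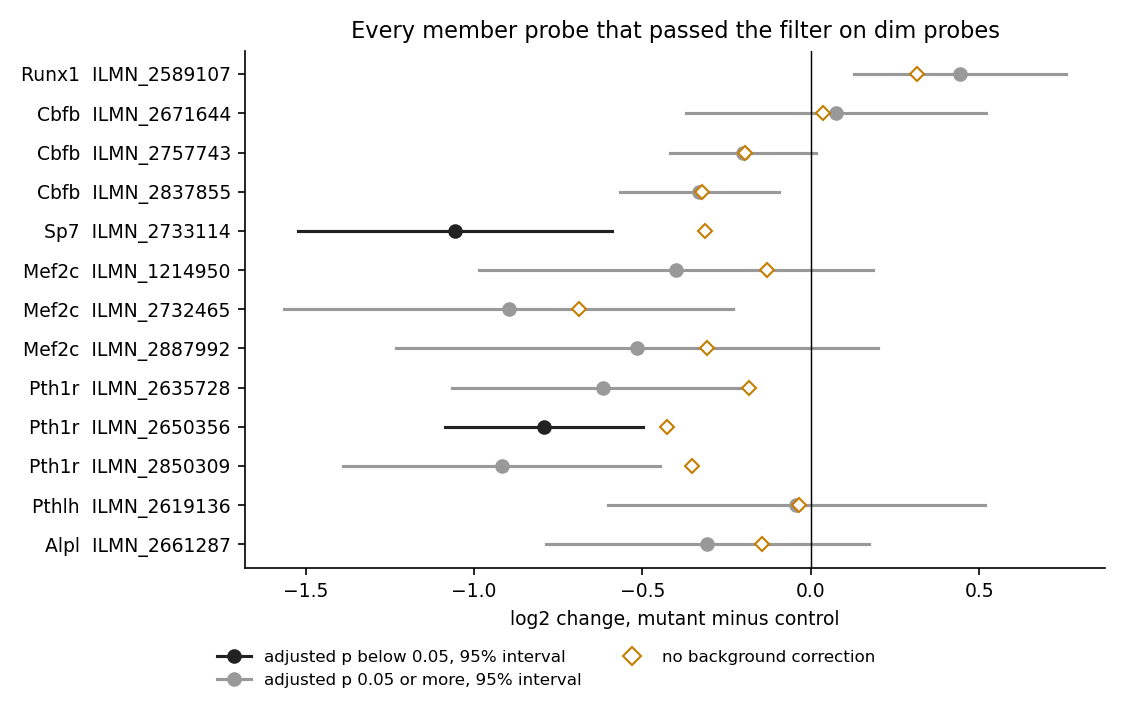
Log2 change, mutant minus control (x axis), of each of the 13 member probes that passed the filter on dim probes, with the 95% interval of the fit of single probes. Black marks an adjusted p below 0.05, and the open diamond is the change without background correction. All 3 Pth1r probes and all 3 Mef2c probes lie below 0, and the changes of dim probes shrink toward 0 without the correction.

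Pthlh encodes the secreted ligand of the loop, made in the growth plate by early chondrocytes and also by epithelia. Its probe read 413, 363 and 352 raw units in mutant pools 1, 2 and 3, against 408, 278 and 327 in control pools 1, 2 and 3. The groups overlapped and control pool 1 stood above the other control pools. The log2 means were 7.69 ± 0.18 in mutant pools and 7.74 ± 0.48 in control pools (SD, n = 3 each), with a change of -0.04 (SE 0.24, 95% interval -0.61 to 0.52, adjusted p = 0.928). The interval leaves room for a change of either sign, and the sign turned in 4 of 20 alternative fits, among them the fit without control pool 1 (0.230) and scaling by the array median (0.049).

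Pth1r encodes the G protein-coupled receptor for parathyroid hormone and for the product of Pthlh, found on chondrocytes before they enlarge and on osteoblasts. It was read by 3 probes, all above background on all 6 arrays. The probe with the highest mean, ILMN_2650356, had log2 values of 7.16, 6.96 and 6.81 in mutant pools 1, 2 and 3, against 7.68, 7.71 and 7.91 in control pools 1, 2 and 3. All mutant values lay below all control values, with raw readings of 272 to 307 in mutant pools and 315 to 380 in control pools. Pth1r fell by 0.79 (SE 0.12, 95% interval -1.08 to -0.50, limma adjusted p = 0.0219), a 1.73-fold difference. The probe ILMN_2850309 gave -0.92 (SE 0.20, adjusted p = 0.0517 in the fit of single probes), and ILMN_2635728 gave -0.62 (SE 0.19, adjusted p = 0.111).

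All 3 Pth1r probes had groups that did not overlap on the normalized scale. Of the 13 kept member probes 7 had groups apart and 2 passed in the fit of single probes, where 29.7% of 14711 probes had groups apart and 4.46% passed. On the raw scale the 2 dimmer Pth1r probes overlapped between groups, with 211 to 220 units in mutant pools and 207 to 275 in control pools for ILMN_2850309. In the authors' deposited table the 3 changes were -0.79, -0.92 and -0.62, with adjusted p of 0.0278, 0.0566 and 0.118. Without background correction the change of the brightest probe was -0.43 (adjusted p = 0.0117). The call was lost without mutant pool 2 (adjusted p = 0.0968), mutant pool 3 (0.0635), control pool 2 (0.0653) or control pool 3 (0.0698), with changes of -0.88 to -0.71 over the 6 fits without 1 pool.

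The 3 annotated start regions of Pth1r are shown because the gene fell in the mutant pools and its probes were not assigned here to a start. They are the 250 bases before each start, from RefSeq on GRCm38.p6, 5′ to 3′ on the strand of the gene. Capitals mark the GC box GGGCGG or its reverse CCGCCC, which was found in 32.7% of all 32851 windows and in 7 of the 16 member windows, with overlapping matches counted apart.
Pth1r, most upstream start, chr9:110747146-110747395, minus strand: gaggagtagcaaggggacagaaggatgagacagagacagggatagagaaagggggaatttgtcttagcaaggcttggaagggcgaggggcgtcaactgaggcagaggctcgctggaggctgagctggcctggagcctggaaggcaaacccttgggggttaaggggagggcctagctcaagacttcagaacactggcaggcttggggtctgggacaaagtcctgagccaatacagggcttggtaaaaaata
Pth1r, middle start, chr9:110743687-110743936, minus strand: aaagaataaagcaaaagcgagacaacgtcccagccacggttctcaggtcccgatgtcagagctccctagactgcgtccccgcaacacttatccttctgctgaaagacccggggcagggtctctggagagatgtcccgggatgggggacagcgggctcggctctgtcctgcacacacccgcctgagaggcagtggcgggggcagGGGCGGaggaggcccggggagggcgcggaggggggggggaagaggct
Pth1r, most downstream start, chr9:110742611-110742860, minus strand: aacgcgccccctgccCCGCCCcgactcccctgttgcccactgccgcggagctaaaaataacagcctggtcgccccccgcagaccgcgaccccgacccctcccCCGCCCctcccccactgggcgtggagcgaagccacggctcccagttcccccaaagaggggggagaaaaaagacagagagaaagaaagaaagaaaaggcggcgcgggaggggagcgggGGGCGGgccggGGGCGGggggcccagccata
In the order printed the windows hold 0, 1 and 4 matches, with a GC content of 56%, 65.6% and 70.4%. None holds the RUNX core, or the SOX core ACAAT (reverse ATTGT), which was in 27.7% of all windows and in 2 of the 16 member windows.

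Alpl encodes tissue-nonspecific alkaline phosphatase, which frees phosphate for mineral. Its probe read 266, 247 and 254 raw units in mutant pools 1, 2 and 3, against 282, 234 and 236 in control pools 1, 2 and 3. The groups overlapped, and the highest value was that of control pool 1. The log2 change was -0.31 (SE 0.20, 95% interval -0.79 to 0.18, adjusted p = 0.396), and it was -0.08 without control pool 1. Col10a1, which encodes collagen X, the marker of hypertrophic chondrocytes, read 162 to 167 raw units in mutant pools and 132 to 150 in control pools. Its detection p was 0.415 to 0.465 in mutant pools and 0.503 to 0.972 in control pools, so neither group had a level above background.

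Other genes of the same program were counted from 5 lists. Of 6 tested genes of the PTHrP and Ihh loop 1 fell, Zfp521, which encodes a zinc finger repressor of RUNX2 activity. Zfp521 had log2 values of 10.28, 9.94 and 9.64 in mutant pools, against 10.60, 11.03 and 10.96 in control pools (change -0.91, SE 0.19, adjusted p = 0.0453). The list median was -0.13, beside 0.01 over all genes. The Zfp521 call held without mutant pool 1 or control pool 1, and no gene of the list was called lower without any other single pool. The call was also lost with array median scaling, without the filter on dim probes and with the pool number as a replicate block. The hedgehog ligand gene Ihh, named after its values were seen, was above background on 3 of 3 mutant arrays and 0 of 3 control arrays. It entered the test through the mutant arrays alone and did not pass (limma adjusted p = 0.0811), but it was called higher without control pool 3. Its mean signal in mutant pools was 1.20-fold the lowest level set for control pools. That is a bound on measured signals near background, not on the true difference. None of 15 RUNX and MEF2 partners and paralogues passed limma's test (3 had an unadjusted p below 0.05), and both Tle1 and Tle4 passed as lower without control pool 1 and with array weights. Tle4 passed also without background correction, with a larger offset, with detection required on all 6 arrays and with an intensity trend. Over all pools the smallest p-values were those of the corepressor genes Tle4 (-0.57, SE 0.13, adjusted p = 0.0537) and Tle1 (-0.43, SE 0.14, adjusted p = 0.117). That list had a median of -0.11, with 11 of 15 changes below 0.

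Of 8 tested osteoblast transcription factor genes 3 fell: Twist1 (log2 change -1.28, SE 0.23), a restrainer of RUNX2, Prrx1 (-0.95, SE 0.11), a factor of early limb and facial mesenchyme, and Twist2 (-0.71, SE 0.14). Of the 8 changes 6 were below 0 and 2 above. Msx1, a homeobox gene of early craniofacial mesenchyme, had a change of 1.14 (SE 0.36, adjusted p = 0.118) with overlapping groups, and it passed as higher without control pool 1 and with array weights. The median of this list was -0.55, and Dlx5 was above background on no array. Of this list 1 gene, Prrx1, was called lower without mutant pool 2, control pool 2 or control pool 3. Prrx1 was called in each fit without 1 pool. Twist1 was called without mutant pool 1, mutant pool 3 or control pool 1, and Twist2 without mutant pool 1 only. In the bone matrix and mineralisation list 2 of 11 fell, Omd, which encodes the small proteoglycan osteomodulin (-2.32, SE 0.34, adjusted p = 0.0200, and -1.10 without background correction), and the collagen I gene Col1a1 (-0.55, SE 0.11), with a median of -0.39. Without mutant pool 2 or control pool 3 the count was 0, and without any other single pool it was 1, Omd each time. Col1a1 was thus called in no fit without 1 pool. The osteocyte and osteoblast genes Bglap2, Dmp1, Sost and Phospho1 were above background on no array. Of 6 tested genes of hypertrophic cartilage and its removal 1 fell, Tnfrsf11b (-1.17, SE 0.14, adjusted p = 0.0113, and -0.58 without background correction), which encodes osteoprotegerin, the decoy that blocks osteoclast formation, and 0 fell without mutant pool 2. Mmp13, a collagenase of hypertrophic cartilage, was above background on no array.

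**Figure D4:**
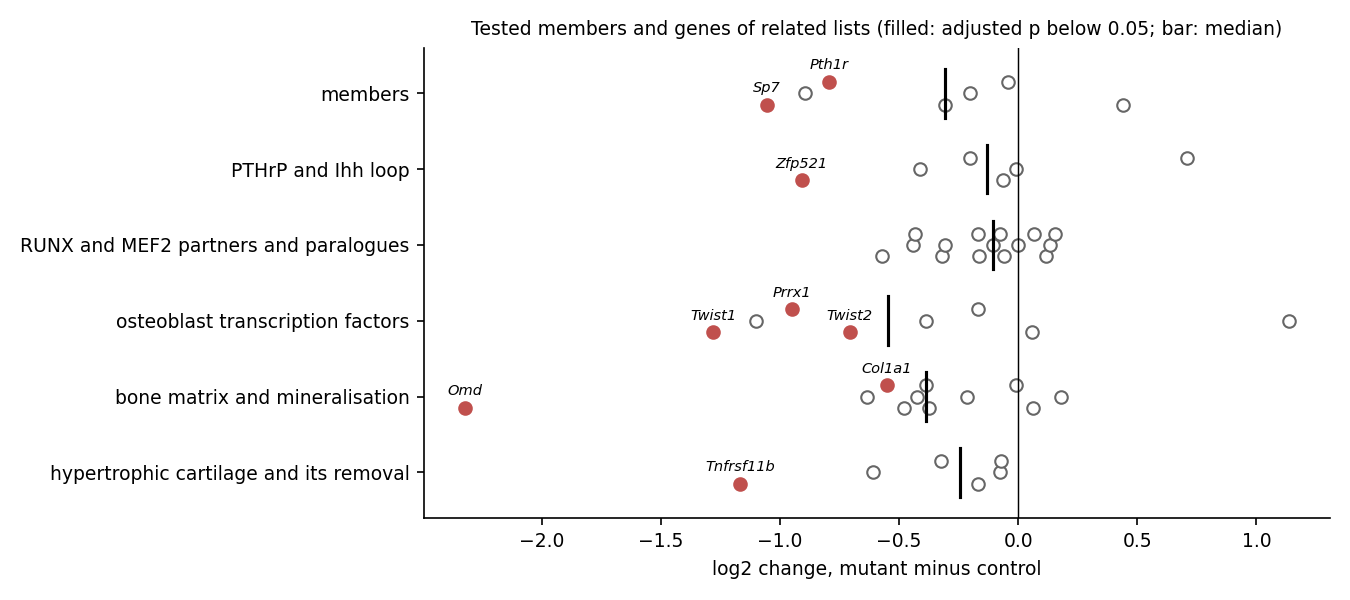
Log2 change, mutant minus control (x axis), of the 7 tested members and of the tested genes of 5 related lists (rows). Filled points passed limma's test at an adjusted p below 0.05 and are named, and bars mark medians. All named points lie below 0, from -2.32 for Omd to -0.55 for Col1a1.

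Chondrocyte, fibroblast and osteoclast markers moved beside these genes as follows. The summed normalized intensity of the 14 chondrocyte markers on the array was 1787 to 1901 in mutant pools and 9886 to 11635 in control pools. Col9a2 fell by 2.47 on the log2 scale. Col2a1 fell as well, with a mutant mean of 5.34 near the lowest detected signal and a control mean of 11.70, and its change of -6.36 (-4.25 without background correction) moves with that correction. It was detected in 2 of 3 mutant pools and 3 of 3 control pools. Col9a3, Matn3, Sox6 and Cnmd were above background on no array. The 10 fibroblast and perichondrium markers summed to 38923 to 46608 in mutant pools and 48406 to 52582 in control pools, and 2 of them fell, with 0 lower without mutant pool 2 and 1 lower without mutant pool 3, control pool 1 or control pool 3. Of 8 osteoclast markers 4 were tested and none passed limma's test (1 at an unadjusted p below 0.05, Ctsk), and Dcstamp, Ocstamp, Calcr and Atp6v0d2 were above background on no array. The part of these cell types in the falls of Sp7 and Pth1r was not tested.

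The genes with patterns most like those of the called members were taken by the distance between log2 values centred on each gene's mean over the 6 arrays, among 10830 other tested genes. For Pth1r these were Gper1, a membrane estrogen receptor gene (distance 0.05, change -0.79), Pdlim4, whose product binds actin fibres (0.11, change -0.86), and Ror2, which encodes a receptor for WNT5A (0.12, change -0.75). For Sp7 they were the elastic fibre gene Emilin1 (0.24, change -0.93), the prostacyclin synthase gene Ptgis (0.29, change -1.08) and Ldb2, a LIM domain cofactor gene (0.29, change -0.98). All 6 passed the limma test with adjusted p of 0.0157 to 0.0391. That follows largely from choosing genes with values close to those of called members, and it is no separate result. The distances are on the log2 scale and describe these 6 arrays only.

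**Figure D5:**
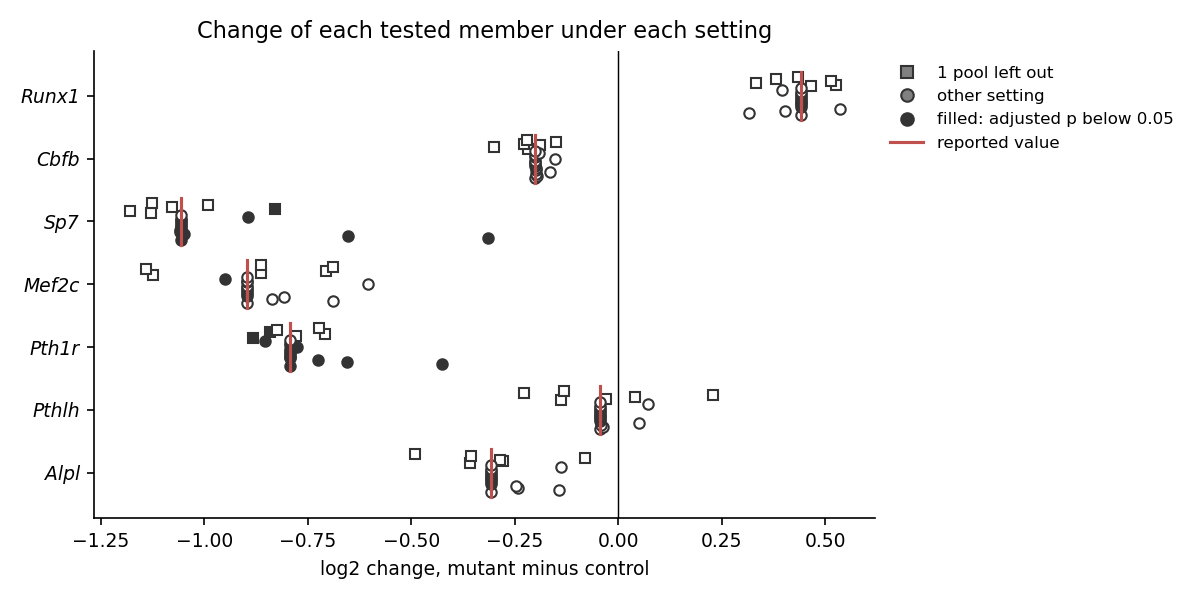
Log2 change, mutant minus control (x axis), of each tested member under the reported setting (red line) and each alternative. Squares leave out 1 pool and circles change another setting, and filled symbols have an adjusted p below 0.05. Sp7 and Pth1r stay below 0 under each of these settings, and Pthlh lies on both sides of 0.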

How the data were processed

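Bead arrays of 6 pools, 3 mutant and 3 control by the sample titles, were used. Per the file headers, the deposited non-normalized table holds mean bead intensity for each probe with its bead error, bead number and detection p-value. The authors' deposited log2 values, log2 fold changes (mutant minus control) and p-values were made with limma 3.26.9 and R 3.2.3, per the submitters' processing notes. Values recomputed here lay within 0.0206 of the deposited log2 series values.

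The raw table was processed by neqc (limma 3.58.1, R 4.3.3): normexp correction with background taken from detection p, an offset of 16 and quantile normalization. A probe stayed if its detection p was under 0.05 in 3 or more of the 6 pools, which held for 14711 probes. Symbols were updated through RefSeq (GRCm38.p6), and the probe with the highest mean was used for each of 10831 genes. Groups were compared with lmFit and eBayes, without covariates, and p-values were adjusted by Benjamini and Hochberg's method across those genes. The fit was tested on simulated data. Where a probe was below background in a whole group, the fold is a bound: the bright mean over the mean, per array, of the dim signal or the lowest signal above background, whichever was higher. Members and lists were chosen with earlier results of these data known. Named genes were the members, from each related list up to 4 called genes with the largest change or, where none passed, the 2 with the smallest p, up to 3 bright markers of each cell type, and the 3 nearest patterns of each called member. Ihh, Aif1, Krt5, Foxj1, Nkx2-1, Tagln and Msx1 were named after their values were seen. Alternatives changed the background correction, offset, normalization, source of values, filter, probe summary, variance model and block, or left out 1 pool. The Sp7 start region was not used here.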

Additional observations from a re-analysis of the deposited data

How the results depend on the processing

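Of 20 alternatives, Pth1r passed in 15 and Sp7 in 13 of the 19 that could test it, both below 0 in each. The count of members called was 2 with all pools, 1 when detection was required on all 6 arrays, where Sp7 was not tested, 3 with array weights, which added Mef2c, and 0 to 1 over the 6 fits without 1 pool. The count of all genes called was 598, against 949 without background correction, 391 without a filter on dim probes, 1023 with an intensity trend, 1400 with array weights and 84 to 564 without 1 pool. Scaled by the array median, 54.8% of called genes were higher in mutant pools, against 39.1%. Pthlh turned to 0.0488 under that scaling, 0.0720 with array weights, 0.0403 without mutant pool 3, and ranged from -0.228 to 0.230 without 1 pool. Counts in the related lists without 1 pool were 1 to 3 lower for osteoblast transcription factors, 0 to 2 for RUNX and MEF2 partners and 0 to 1 for the other 3 lists. In the same fits 1 osteoblast transcription factor gene, Msx1, was called higher without control pool 1. In the PTHrP and Ihh loop Ihh, tested through the mutant arrays alone, was called higher without control pool 3. The pool numbers do not pair the groups (correlations of same-numbered deviations -0.01, -0.09 and -0.10). With the pool number as a replicate block 123 genes and 0 members passed (Sp7 adjusted p = 0.0506, Pth1r adjusted p = 0.0703), and Pthlh changed by -0.04. Apart from these counts, the cause was not tested. Signals near background limit the sizes given for Sp7, Omd, Tnfrsf11b, Col2a1, all Pth1r probes and the dimmer Mef2c probes.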
